A study of Homo sapiens with 16 samples.

Results

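YAP and TAZ are the transcriptional coactivators restrained by the Hippo pathway, and 10 genes of this system were followed in MCF10A cells, a line of human breast epithelium that immortalized on its own and does not form tumours. The genes were taken by name from a table of 26475 genes. They were *YAP1* and *WWTR1*, which encode YAP and TAZ; *TEAD1* and *TEAD4*, which encode DNA-binding partners of both; and the target genes *CYR61* (also *CCN1*), *CTGF* (also *CCN2*), *ANKRD1*, *AMOTL2*, *AXL* and *LATS2*. All 10 were counted in every library and passed the filter on low counts in every comparison.

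YAP and TAZ do not bind DNA themselves. In the Hippo pathway, the kinases LATS1 and LATS2, switched on by upstream kinases with their adaptor proteins, phosphorylate both coactivators and keep them in the cytoplasm. When the kinases are less active, YAP and TAZ enter the nucleus, join TEAD proteins on DNA and switch on genes for matrix-associated proteins, receptors and inhibitors of the pathway itself. Stiff matrix, spread cell shape and low cell density are known to favour nuclear YAP and TAZ in epithelial cells, and this step is set on the protein. RNA measures the messages of these genes and not where the proteins are.

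RNA-seq libraries were made from 4 groups with 4 libraries each. The control group received vehicle (DMSO) and no collagen. The collagen group received DMSO with 0.05 mg/mL collagen for the last 24 h. A further group received the same collagen with 2 µM DDR1-IN-1 (DDR1i), an inhibitor of the collagen receptor kinase DDR1, which was present for 48 h. The last group received the same collagen with 5 µM AI-10-104 (RUNXi), which blocks the binding of RUNX transcription factors to their partner CBFβ, also for 48 h. All libraries came from a single cell line, which the labels call diploid. The labels do not say that replicates were separate cultures, so p-values measure only the spread between these samples, which may be technical.

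Total counts ranged from 12184619 to 44332378 per library, with group medians from 22253132 to 26844099. Collagen replicate 3, which the authors removed from their analysis as an outlier, was left out of the main tests. Its value, or the result with it included, is given beside the calls it touches. All 6 epithelial and basal markers (*EPCAM*, *CDH1*, *KRT5*, *KRT14*, *KRT17* and *TP63*) were detected in every group. Their summed level was 9497 to 12582 CPM with DDR1i and 14075 to 19615 CPM in the other 12 libraries. The means of markers given here are over all 4 libraries of a group, collagen replicate 3 included. The keratins carried this sum: the mean of *KRT5* was 7984 CPM with DDR1i and 9703 CPM with collagen, that of *KRT14* 2059 and 3706 CPM and that of *KRT17* 1204 and 2306 CPM. The mean of *EPCAM* was also lower, at 27.8 and 38.0 CPM, with overlapping ranges (20.2 to 37.5 and 27.0 to 48.2 CPM). In contrast, *CDH1* was at 94.7 and 79.8 CPM and *TP63* at 59.3 and 58.5 CPM. Fibroblast markers summed to 5.42 to 32.9 CPM, nearly all of it *DCN* where they were highest, with *COL3A1* at 0 counts. Endothelial markers reached at most 2.40 CPM with *CDH5* at 0 counts, and leukocyte markers summed to 9.40 to 43.95 CPM, nearly all from *CD68* (up to 28.7 CPM) and *CD14* (up to 18.7 CPM, with means of 4.01 CPM with RUNXi and 10.96 CPM with collagen), with *PTPRC* at no more than 0.0289 CPM and *CD3E* at no more than 0.0442 CPM. The part of the lower keratin and *EPCAM* levels with DDR1i and of the lower *CD14* with RUNXi in the results below was not tested. In bulk RNA, fewer cells of a type and less RNA per cell cannot be told apart.

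TEAD proteins are known to bind sites with the letters GGAATG, and the promoters of the genes were searched for them. The RefSeq promoter table (assembly GRCh38.p14), which gives 250 bases before to 50 bases after a gene's start, held 7 of the 10 genes, and *TEAD1*, *TEAD4* and *CYR61* were not searched. GGAATG or its reverse complement CATTCC was found in a promoter of 6 of the 7, against 16.7% of all 27305 genes in the table. *CTGF*, *ANKRD1*, *AMOTL2*, *AXL* and *LATS2* were listed because they are known targets, so this share is a description and not a test of enrichment. A match is a description of the letters and not a shown binding site. *CTGF* is printed first because its promoter held 3 matches, as only 0.128% of 35116 promoters do. The stretch lies on the minus strand at chr6:131951447-131951556, from position -184 to -75 of the start, and capitals mark the TEAD letters.
CTGF: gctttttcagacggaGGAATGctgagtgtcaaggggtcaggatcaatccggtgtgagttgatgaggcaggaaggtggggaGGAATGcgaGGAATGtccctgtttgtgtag

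Of these 3 matches, 2 lie next to each other, with 3 bases between them. The other genes had 1 match each, except *ANKRD1* with 2, and windows of 30 bases around them are shown to let the flanks be compared. The window of *AXL* lies at chr19:41226531-41226560 (plus strand, match at -212 in the second of its 2 promoters), that of *AMOTL2* at chr3:134374499-134374528 (minus strand, -69, second of 2 promoters) and that of *LATS2* at chr13:21061560-21061589 (minus strand, 10 bases after the start). The matches of *ANKRD1* lie at chr10:90921290-90921319 and chr10:90921198-90921227 (minus strand, -220 and -128), and that of *YAP1* at chr11:102110273-102110302 (plus strand, -162). Capitals again mark the TEAD letters, as GGAATG or on the other strand as CATTCC.
AXL: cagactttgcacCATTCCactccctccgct
AMOTL2: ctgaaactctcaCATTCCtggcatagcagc
LATS2: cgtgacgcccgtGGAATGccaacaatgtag
ANKRD1 (first): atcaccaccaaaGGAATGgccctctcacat
ANKRD1 (second): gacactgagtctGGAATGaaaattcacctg
YAP1: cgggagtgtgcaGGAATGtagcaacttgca

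RUNX proteins, whose partner RUNXi acts on, bind sites with the letters TGTGGT (reverse complement ACCACA). These were present in 15.6% of the 27305 genes, and among the 7 genes they were found in *AMOTL2* (chr3:134374540-134374569, minus strand, -110, in the promoter that also held its TEAD letters) and *WWTR1* (chr3:149703379-149703408, minus strand, -123). *WWTR1* held no TEAD letters in either of its 2 promoters. Both windows are shown because the RUNX inhibitor is among the treatments, and capitals mark the RUNX letters.
AMOTL2: tgagaggttattTGTGGTtcgctttgatcc
WWTR1: tcataactgttgTGTGGTaaatatttctgt

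Expression is given as CPM, the counts of a gene per 1000000 counted reads, scaled with edgeR's TMM factors over all 16 libraries. Levels were compared between genes only per length, as CPM per kilobase of the canonical transcript. On that scale the mean ± SD over the 16 libraries was 45.5 ± 4.36 for *YAP1*, 34.4 ± 4.76 for *CYR61*, 28.2 ± 4.12 for *TEAD4*, 27.3 ± 6.69 for *AXL*, 17.8 ± 5.25 for *AMOTL2* and 14.6 ± 3.47 for *TEAD1*. It was 13.4 ± 3.20 for *CTGF*, 12.4 ± 1.95 for *WWTR1*, 6.49 ± 1.34 for *LATS2* and 1.65 ± 1.09 for *ANKRD1*. *YAP1* was thus above 86.5% of 12989 genes with a length, and *ANKRD1* above 23.9%. *YAP1* was above *CYR61* in 15 of 16 libraries and *CYR61* above *TEAD4* in 14 of 16, and *AMOTL2* was above *TEAD1* in 12. The order of *TEAD4* and *AXL* held in only 9 of 16 libraries, and the orders of *TEAD1* and *CTGF* and of *CTGF* and *WWTR1* held in 10 and 11. These neighbours did not differ beyond their spread. The coactivator message was thus led by *YAP1*, and among the TEAD messages *TEAD4* stood highest per length in each group. Group means of *TEAD1*, *TEAD2* and *TEAD3* were 11.1 to 16.5, 10.7 to 11.8 and 4.25 to 6.74 CPM per kilobase, and with collagen alone *TEAD1* (11.1) was not above *TEAD2* (11.8).

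**Figure D1:**
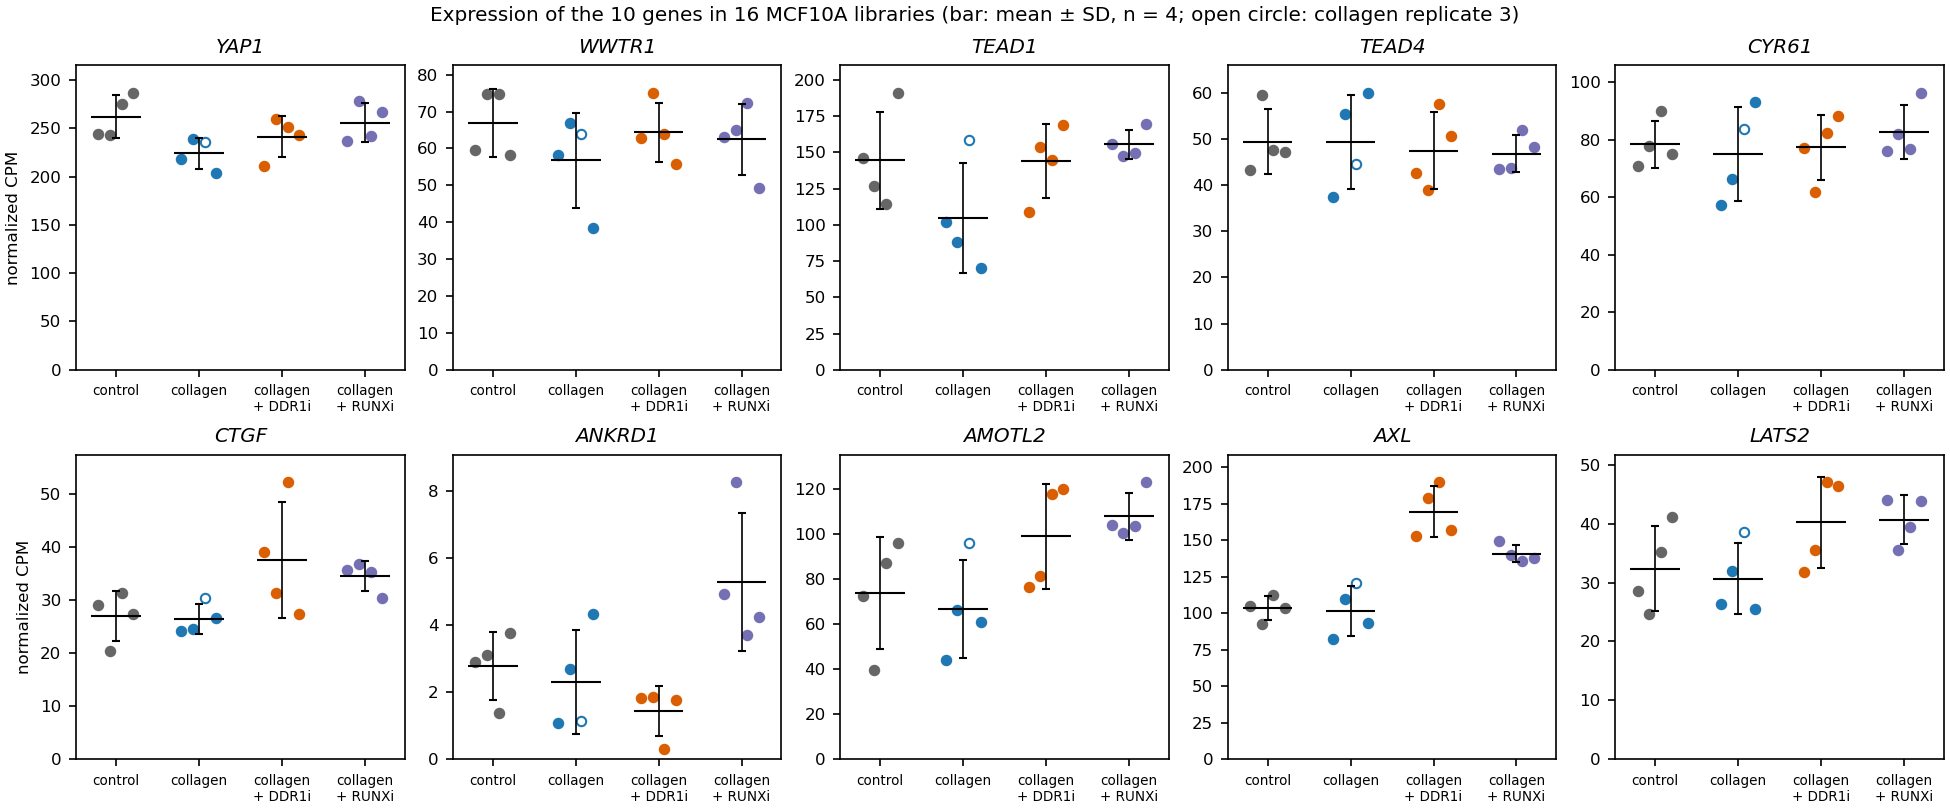
Normalized CPM of the 10 genes in each library (points) of the 4 groups, with the mean and SD of 4 libraries as a line and bar; collagen replicate 3 is an open circle. *AXL* with either inhibitor lies at 136 CPM or more, above all 8 libraries without an inhibitor, whose highest is 121 CPM, while *WWTR1*, *TEAD4* and *CYR61* overlap between all groups.

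The design asks what blocking DDR1 or RUNX does to cells given collagen, so each inhibitor was first compared with collagen alone. *TEAD1*, *AMOTL2* and *AXL* were higher with DDR1i and also with RUNXi, and no gene of the 10 passed as lower. Over all 13548 genes tested, 2.47% passed with DDR1i and 4.05% with RUNXi, against these 3 of 10 genes in each comparison. The median log2 fold change of the 10 genes was 0.38 with DDR1i and 0.50 with RUNXi, and over all genes tested it was 0.0037 and 0.0051. With DDR1i 8 of the 10 values were above 0 and with RUNXi 9, against 50.3% and 50.5% of all genes. The 10 genes were chosen with earlier results of these data known, so these shares and medians are a description and not a test of the set. The comparisons share the collagen libraries and are not independent of each other. Fold changes come from a fit of 11 libraries (collagen replicates 1, 2 and 4 with all 8 inhibitor libraries) in edgeR's quasi-likelihood framework, and p-values were adjusted over all genes by the Benjamini-Hochberg method with a threshold of 0.05.

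A trend with transcript length ran through these comparisons. Across 13004 genes, the log2 fold change correlated with the length of the canonical transcript at a Spearman coefficient of 0.40 with DDR1i and 0.38 with RUNXi. Genes are not independent replicates, and the value is a description. The 25% of genes with the longest transcripts (5162 bases or more) had a median log2 fold change of 0.24 with either inhibitor, and the 25% with the shortest (up to 1970 bases) had -0.19 with DDR1i and -0.23 with RUNXi. Between DDR1i and RUNXi the correlation was -0.034, and against the control it was -0.10 for DDR1i and -0.063 for RUNXi. For the 3 genes that passed, the canonical transcripts are 9417 bases (*TEAD1*), 4868 bases (*AMOTL2*) and 4717 bases (*AXL*). The cause of the trend was not tested. Values after its removal are given for each of these 3 genes. With the trend removed, 1 of the 10 genes passed with DDR1i and 2 with RUNXi, and their medians were 0.24 and 0.40.

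Neither coactivator passed the test in any of the 6 comparisons. *YAP1* (chr11:101981178-102104155 in GRCh37, plus strand) was measured at 244, 243, 276 and 287 CPM in the control and at 219, 239, 236 and 203 CPM with collagen. It was at 211, 259.6, 251 and 243 CPM with DDR1i and at 236, 278, 242 and 267 CPM with RUNXi. The lowest control library was above every collagen library, as for 164 of 13518 genes (1.21%), and the inhibitor groups overlapped both. The log2 fold change against collagen was 0.13 with DDR1i (95% confidence interval -0.11 to 0.37) and 0.21 with RUNXi (-0.027 to 0.45; adjusted p = 0.301). With the length trend removed the value for DDR1i was -0.063, so no direction is given for it. An antisense transcript that shares 628 exon bases with *YAP1* was not counted separately.

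*WWTR1*, the message for TAZ (chr3:149235022-149454501, minus strand), ranged from 38.3 to 75.04 CPM over the 16 libraries, both ends set by single libraries (collagen replicate 4 and DDR1i replicate 2). Its log2 fold change against collagen was 0.24 with DDR1i (-0.11 to 0.59) and 0.19 with RUNXi (-0.16 to 0.54), and the latter was -0.0020 without collagen replicate 4. *WWTR1-AS1*, an antisense gene that shares 756 exon bases with it, had 86 counts in all 16 libraries together. The use of strand in the counting is not given in the sources used here, so reads of the shared bases cannot be told apart.

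Among the DNA-binding factors, *TEAD1* (chr11:12695968-12966284, plus strand) changed and *TEAD4* did not pass. *TEAD1* was at 146, 127, 115 and 191 CPM in the control and at 102, 88.3, 158 and 70.0 CPM with collagen. With DDR1i it was at 109, 154, 145 and 169 CPM and with RUNXi at 156, 147, 149.8 and 169.7 CPM. Collagen replicates 1, 2 and 4 lay below the other 13 libraries, as for 307 of 13518 genes (2.27%), and collagen replicate 3, at 158 CPM, lay among the inhibitor libraries. The log2 fold change against collagen was 0.73 with DDR1i (SE 0.15, adjusted p = 0.00993, 1.66-fold) and 0.84 with RUNXi (SE 0.15, adjusted p = 0.00310, 1.79-fold).

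The call on *TEAD1* rested on which collagen libraries were used. With collagen replicate 3 included the log2 fold changes were 0.46 (adjusted p = 0.508) and 0.56 (adjusted p = 0.246). With the length trend removed, the change with DDR1i was 0.40 and did not pass (adjusted p = 0.104), while that with RUNXi was 0.56 and passed (adjusted p = 0.0211). Against the control, which takes in no collagen-alone library, *TEAD1* differed by -2.2e-05 with DDR1i (-0.30 to 0.30) and by 0.10 with RUNXi (-0.19 to 0.40). Its level with either inhibitor was thus not distinguishable from that of cells without collagen.

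*TEAD4* (chr12:3068496-3149842, plus strand) ranged from 37.4 to 60.0 CPM, and the 4 groups overlapped. Its log2 fold change against collagen was -0.11 with DDR1i (-0.45 to 0.24) and -0.13 with RUNXi (-0.47 to 0.22). The other TEAD genes did not pass either. *TEAD3* came nearest, at a log2 fold change of 0.72 with RUNXi (adjusted p = 0.0546).

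Of the target genes, *AXL* (chr19:41725128-41767671, plus strand), a receptor tyrosine kinase for the ligand GAS6, passed in the most comparisons. Control libraries were at 105, 92.2, 112 and 104 CPM and collagen libraries at 82.3, 109.7, 121 and 93.4 CPM. DDR1i libraries were at 153, 179, 189.8 and 157 CPM and RUNXi libraries at 149, 139.7, 136 and 138 CPM. All 8 inhibitor libraries were above all 8 libraries without inhibitor, collagen replicate 3 among them, and the lowest of the former was 1.13 times the highest of the latter. Of 13518 genes, 9 (0.0666%) had this pattern. DDR1i libraries were all above RUNXi libraries, too, as for 308 of 13518 genes (2.28%), but the margin was small, 153 against 149 CPM at the closest.

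Against collagen the log2 fold change of *AXL* was 0.83 with DDR1i (SE 0.13, adjusted p = 0.00142, 1.78-fold) and 0.56 with RUNXi (SE 0.13, adjusted p = 0.0180, 1.47-fold). With DDR1i it passed in every alternative fit, and its highest adjusted p was 0.0140 (log2 fold change 0.74), with collagen replicate 3 included. With the length trend removed the value was 0.68 (adjusted p = 0.00895). With RUNXi it was 0.45 and did not pass with that library included (adjusted p = 0.139), nor with the length trend removed (0.43, adjusted p = 0.0687) or without collagen replicate 1 (0.44, adjusted p = 0.0600).

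Against the control, *AXL* was the only gene of the 10 that passed with DDR1i, at a log2 fold change of 0.72 (SE 0.11, adjusted p = 0.00212, 1.65-fold). This comparison had 0.212% of 13213 genes past the threshold, and *AXL* kept its call in each of 12 fits that left out a library and without control replicates 2 and 3 together (0.70, adjusted p = 0.0320). With RUNXi the value was 0.45 (SE 0.11) and did not pass in the main fit (adjusted p = 0.0658), where 0.401% of genes did and none of the 10. Of the 10, *AXL* and *AMOTL2* had an unadjusted p under 0.05 there, as had 6.81% of all genes. *AXL* passed with DESeq2 (adjusted p = 0.00282) and with the replicate number as a block (adjusted p = 0.0197). Over the other fits its adjusted p reached 0.355, without control replicates 2 and 3. Collagen and inhibitor differ together in both comparisons with the control and cannot be told apart there, while collagen alone left *AXL* at a log2 fold change of -0.11 (-0.42 to 0.20).

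*AMOTL2* and *LATS2* are feedback genes, whose products restrain YAP and TAZ. AMOTL2, a motin family protein (chr3:134074189-134094321, minus strand), binds YAP at junctions. Its gene was at 72.1, 39.7, 87.1 and 96.1 CPM in the control, and at 43.8, 65.9, 95.7 and 60.6 CPM with collagen. With DDR1i it was at 76.5, 81.1, 118 and 119.7 CPM and with RUNXi at 104, 100.5, 103 and 123 CPM. All RUNXi libraries were above all control and collagen libraries, as for 106 of 13518 genes (0.784%). DDR1i libraries overlapped those of the control and collagen replicate 3. The log2 fold change against collagen was 0.79 with DDR1i (SE 0.17, adjusted p = 0.0117, 1.73-fold) and 0.92 with RUNXi (SE 0.17, adjusted p = 0.00421, 1.89-fold).

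With collagen replicate 3 included neither change of *AMOTL2* passed (0.56, adjusted p = 0.454 and 0.68, adjusted p = 0.146). With the length trend removed the change with RUNXi was 0.77 and passed (adjusted p = 0.0208). The change with DDR1i was also lost with the trend removed (0.63, adjusted p = 0.0633) and without collagen replicate 1, DDR1i replicate 3 or DDR1i replicate 4 (adjusted p = 0.0508, 0.0667 and 0.0591). Against the control *AMOTL2* was higher by 0.42 with DDR1i (-0.0094 to 0.85; adjusted p = 0.992) and by 0.54 with RUNXi (0.11 to 0.97; adjusted p = 0.566), and neither passed, although the latter did with the replicate block (adjusted p = 0.0390).

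*LATS2* (chr13:21547175-21635725, minus strand), the kinase that phosphorylates YAP, was at 28.5, 24.7, 35.2 and 41.2 CPM in the control and at 26.4, 32.1, 38.6 and 25.6 CPM with collagen. It was at 31.8, 35.7, 47.1 and 46.6 CPM with DDR1i and at 44.2, 35.5, 39.5 and 43.9 CPM with RUNXi. The groups overlapped, with the inhibitor libraries in the upper part of the range. The log2 fold changes against collagen were 0.52 (SE 0.17, adjusted p = 0.0978) and 0.53 (SE 0.17, adjusted p = 0.0727), neither past the threshold in edgeR, while DESeq2 called both (adjusted p = 0.0442 and 0.0352).

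The pair also ran together from library to library. Over the 16 libraries the log2 CPM of *AMOTL2* and *LATS2* correlated at Pearson's r = 0.93 and a Spearman coefficient of 0.94, and the latter was 0.91 after each group's mean was taken off. Both values of a point come from 1 library and share its depth and quality, so this is a description. Over all 45 pairs of the 10 genes, the Spearman coefficient ran from -0.28 to 0.94 with a median of 0.18, and 5 pairs were above 0.7. The textbook targets did not form a single block, since *CYR61* and *CTGF* correlated at only 0.20. *CTGF* and *AXL* correlated at 0.79 over all libraries and at 0.58 within groups, and *YAP1* and *WWTR1* at 0.23.

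**Figure D2:**
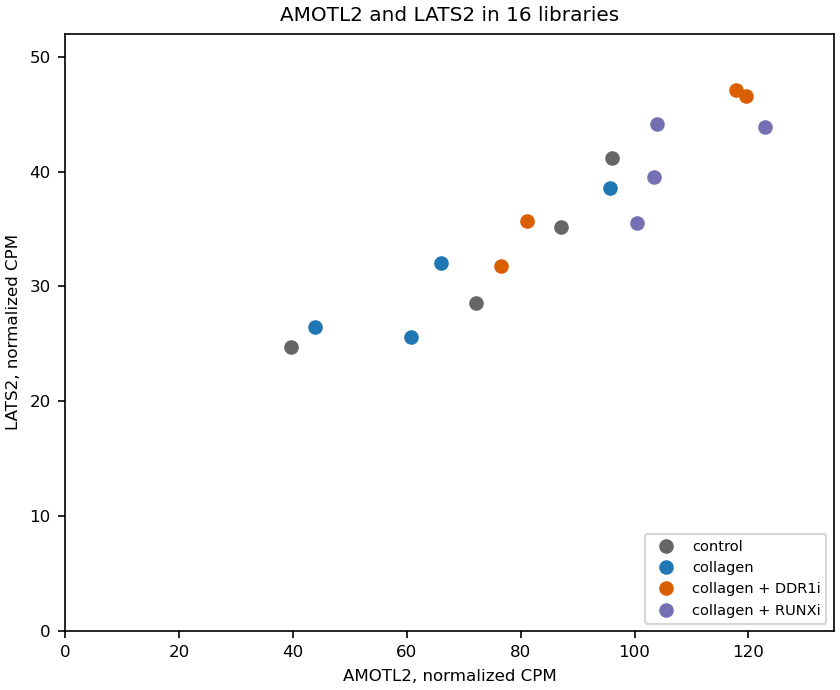
Normalized CPM of *LATS2* (vertical) against that of *AMOTL2* (horizontal) in the 16 libraries, coloured by group. The points follow a common line from control replicate 2, at 39.7 and 24.7 CPM, to the DDR1i and RUNXi libraries at 118 to 123 CPM of *AMOTL2*, and control and collagen libraries lie on the same line.

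The secreted matricellular proteins CYR61 and CTGF, the messages most often read as YAP activity, gave different pictures. *CYR61* (chr1:86046444-86050272, plus strand) ranged from 57.2 to 96.3 CPM with all groups overlapping, and its log2 fold change against collagen was 0.097 with DDR1i (-0.23 to 0.42) and 0.19 with RUNXi (-0.14 to 0.52). *CTGF* (chr6:132269316-132272512, minus strand) was at 29.1, 20.4, 31.3 and 27.3 CPM in the control and at 24.1, 24.5, 30.4 and 26.5 CPM with collagen. It was at 39.1, 31.3, 52.2 and 27.4 CPM with DDR1i and at 35.6, 36.8, 35.4 and 30.5 CPM with RUNXi. DDR1i replicate 3 was the highest of all, and DDR1i replicate 4 lay within the range of the control.

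The log2 fold change of *CTGF* against collagen was 0.58 with DDR1i (SE 0.19, adjusted p = 0.0898) and 0.46 with RUNXi (SE 0.19, adjusted p = 0.157), neither past the threshold. DESeq2 called the former (adjusted p = 0.0444), and over the other fits its adjusted p reached 0.458, with collagen replicate 3 included. *LINC01013*, an antisense gene that overlaps 278 of its exon bases, had 0 counts in every library.

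*ANKRD1*, a nuclear ankyrin repeat protein and a strong YAP target in many cells, was the least expressed of the 10, at 7 to 179 counts per library (chr10:92671853-92680844, minus strand). It was at 2.90, 3.12, 1.37 and 3.76 CPM in the control and at 1.07, 2.68, 1.13 and 4.33 CPM with collagen. With DDR1i it was at 1.82, 1.84, 0.311 and 1.77 CPM, and with RUNXi at 4.92, 8.26, 3.70 and 4.24 CPM. All RUNXi libraries were above all DDR1i libraries, the closest by 2.01 times, a pattern that 301 of 13518 genes (2.23%) had. Control and collagen libraries overlapped both groups, except that no DDR1i library reached the mean of either.

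Against collagen, the log2 fold change of *ANKRD1* was -0.91 with DDR1i (-2.10 to 0.28; adjusted p = 0.439) and 0.96 with RUNXi (-0.24 to 2.16; adjusted p = 0.361). Both intervals include 0 and span more than a 2-fold change.

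Compared directly, *ANKRD1* was lower with DDR1i than with RUNXi by a log2 fold change of -1.87 (SE 0.55, unadjusted p = 0.00224, adjusted p = 0.200), and it did not pass. *AXL* was higher with DDR1i than with RUNXi by 0.28 (0.040 to 0.51; adjusted p = 0.651). No gene of the 10 passed in this comparison, in which 0.568% of all genes did (DESeq2 also called none of the 10). An unadjusted p under 0.05 was found for 2 of the 10 and for 6.19% of all genes. For the remaining 8 genes the difference between the inhibitors was between -0.12 and 0.12 on the log2 scale, and no interval reached beyond -0.43 or 0.48.

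Collagen alone was then set against the control. With collagen replicate 3 left out, 0% of 13092 genes passed in edgeR's test, none of the 10 among them, although 1754 genes had an unadjusted p under 0.05 and DESeq2 called 414 of the 7130 genes that it gave an adjusted p. *TEAD1* had the lowest p of the 10, at a log2 fold change of -0.73 (SE 0.18, unadjusted p = 0.00105, adjusted p = 0.128). DESeq2 called it (adjusted p = 0.0121), as did edgeR without a filter on low counts (0.00446) and in a fit of all 4 groups (0.0235), whereas its adjusted p was 0.803 once collagen replicate 3 was put back. *YAP1* differed by -0.24 (-0.51 to 0.022) and *AMOTL2* by -0.37 (-0.88 to 0.14). Of the 10 genes 9 had values below 0, with a median of -0.16 against 0.0089 over all genes, of which 50.9% were above 0. The length trend ran the other way here (Spearman coefficient -0.45 over 12633 genes), and since the collagen libraries are shared, a low value in them enters this comparison and those of the inhibitors with opposite signs.

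**Figure D3:**
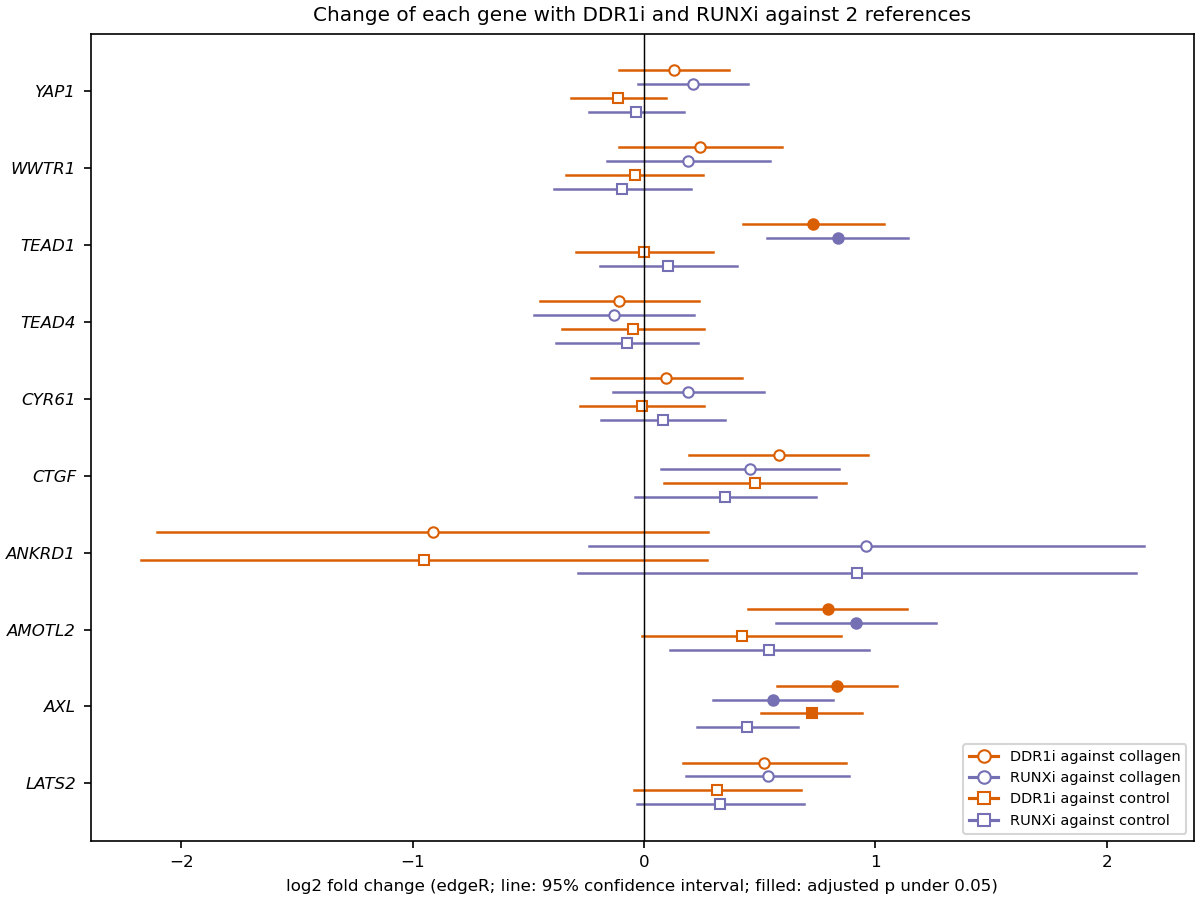
Log2 fold change of each gene with DDR1i (orange) and RUNXi (purple) against collagen (circles) and against the control (squares), with 95% confidence intervals as lines; filled symbols passed an adjusted p of 0.05 in edgeR's test. *TEAD1* is at 0.73 and 0.84 against collagen and near 0 against the control, whereas *AXL* with DDR1i is at 0.83 and 0.72.

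Other genes of the Hippo pathway were taken from a list of 25 genes that holds upstream kinases, adaptors, proteins that bind YAP and TAZ, and TEAD cofactors. Of these, 23 were tested, since *VGLL1* had 0 counts and *AMOT* was at no more than 3.36 CPM. *WWC2*, a homologue of the adaptor KIBRA, and *AMOTL1*, a motin like AMOTL2, were higher with both inhibitors than with collagen, and the other 21 did not pass. The log2 fold change of *WWC2* was 0.74 with DDR1i (SE 0.17, adjusted p = 0.0201) and 0.63 with RUNXi (adjusted p = 0.0374), and that of *AMOTL1* was 0.60 (adjusted p = 0.0319) and 0.53 (adjusted p = 0.0447). Over all genes tested, 2.47% passed with DDR1i and 4.05% with RUNXi, against these 2 of 23 in each. The values of 21 of 23 genes were above 0 with DDR1i (median 0.27) and of 20 with RUNXi (median 0.35). Over all genes 50.3% and 50.5% were above 0. With the length trend removed the medians were 0.062 and 0.10 and 0 genes of the list passed, and 0 passed with collagen replicate 3 included. In the edgeR fits described above no gene of the list passed in the other 4 comparisons, although 2 (DDR1i against RUNXi), 6 (collagen against the control), 3 (DDR1i against the control) and 2 (RUNXi against the control) had an unadjusted p under 0.05. Over all genes tested, 6.19%, 13.4%, 5.13% and 6.81% had such a p. DESeq2 called 1, 3, 0 and 0 of the list, and 0.905%, 5.81%, 0.485% and 1.04% of all genes. For collagen against the control edgeR called 2 of the list, both lower, without a filter and 2 with all 4 groups in the fit, and for DDR1i against RUNXi it called 1 without collagen replicate 4. The medians against the control were -0.0011 with DDR1i and -0.039 with RUNXi.

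Of 15 further YAP and TAZ target genes, all tested, 5 were higher with DDR1i and 4 with RUNXi, and 1 was lower with RUNXi. Over all genes tested, 2.47% passed with DDR1i and 4.05% with RUNXi in either direction. *DOCK5*, an activator of the GTPase Rac, had the highest values, at a log2 fold change of 1.08 with DDR1i (SE 0.17, adjusted p = 0.00230, 2.12-fold) and 1.07 with RUNXi (adjusted p = 0.00115, 2.10-fold). *ASAP1*, which acts on the GTPase Arf, changed by 0.66 (adjusted p = 0.00929) and 0.67 (adjusted p = 0.00765), and *CRIM1*, a transmembrane protein that binds BMPs, by 0.61 (adjusted p = 0.0301) and 0.75 (adjusted p = 0.0105). *MYOF*, a ferlin of membrane repair, passed with DDR1i (0.64, adjusted p = 0.0136), and *ARHGEF17*, a guanine nucleotide exchange factor, with RUNXi (1.06, SE 0.19, adjusted p = 0.00406).

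For *DOCK5*, *ASAP1*, *CRIM1* and *MYOF* the group means of both inhibitors lay near that of the control. The mean of *DOCK5* was 97.6 CPM with DDR1i, 97.2 CPM with RUNXi and 87.4 CPM in the control, and 46.1 CPM in collagen replicates 1, 2 and 4. Collagen replicate 3 did not share the low level, at 102 CPM for *DOCK5*. It was at 141 CPM for *ASAP1*, 118 CPM for *CRIM1* and 283 CPM for *MYOF*, the highest collagen library for each. *NT5E*, the other gene that passed with DDR1i (0.58, adjusted p = 0.0340), did not share this pattern. Its mean was 396 CPM with DDR1i, 270 CPM in the control and 265 CPM in collagen replicates 1, 2 and 4. The control (212 to 411 CPM) overlapped the DDR1i libraries (347 to 447 CPM). With DDR1i it was 0.56 above the control (SE 0.18, adjusted p = 0.570), which did not pass. Its call against collagen held in 10 of 18 alternative fits. Against the control none of the 15 passed with DDR1i in edgeR's test, while 4 had an unadjusted p under 0.05, as had 5.13% of all genes. DESeq2 called 1, and edgeR called 3 with the replicate block and 1 without control replicate 4. The median log2 fold change of the list against collagen was 0.49 with DDR1i and 0.13 with RUNXi, and with collagen replicate 3 included 0 genes passed with DDR1i and 1 with RUNXi.

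That gene was *IGFBP3*, a secreted binding protein of insulin-like growth factors, which fell with RUNXi. It was at 9.51, 16.4, 16.2 and 5.70 CPM in the control, at 9.82, 9.14, 10.1 and 5.41 CPM with collagen and at 7.25, 6.40, 14.02 and 3.72 CPM with DDR1i. With RUNXi it was at 0.985, 2.54, 3.38 and 2.10 CPM, below the other 12 libraries, as for 42 of 13518 genes (0.311%), and the closest values were 3.38 CPM with RUNXi and 3.72 CPM with DDR1i. The log2 fold change with RUNXi was -1.87 against collagen (SE 0.43, adjusted p = 0.0187) and -2.41 against the control (SE 0.45, adjusted p = 0.0120). The former passed in all 18 alternative fits, and the latter was lost without control replicates 2 and 3 (-1.78, adjusted p = 0.207). With DDR1i it was 1.82 above the RUNXi group (SE 0.41, adjusted p = 0.0290). *CCDC80*, named after its values were seen, also differed between the inhibitors, by 1.05 (SE 0.23, adjusted p = 0.0280). Between the inhibitors both calls were lost without DDR1i replicate 1 or 3 or RUNXi replicate 1. Without DDR1i replicate 3, the difference of *IGFBP3* was 1.39 (adjusted p = 0.298) and that of *CCDC80* 0.86 (adjusted p = 0.243).

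**Figure D4:**
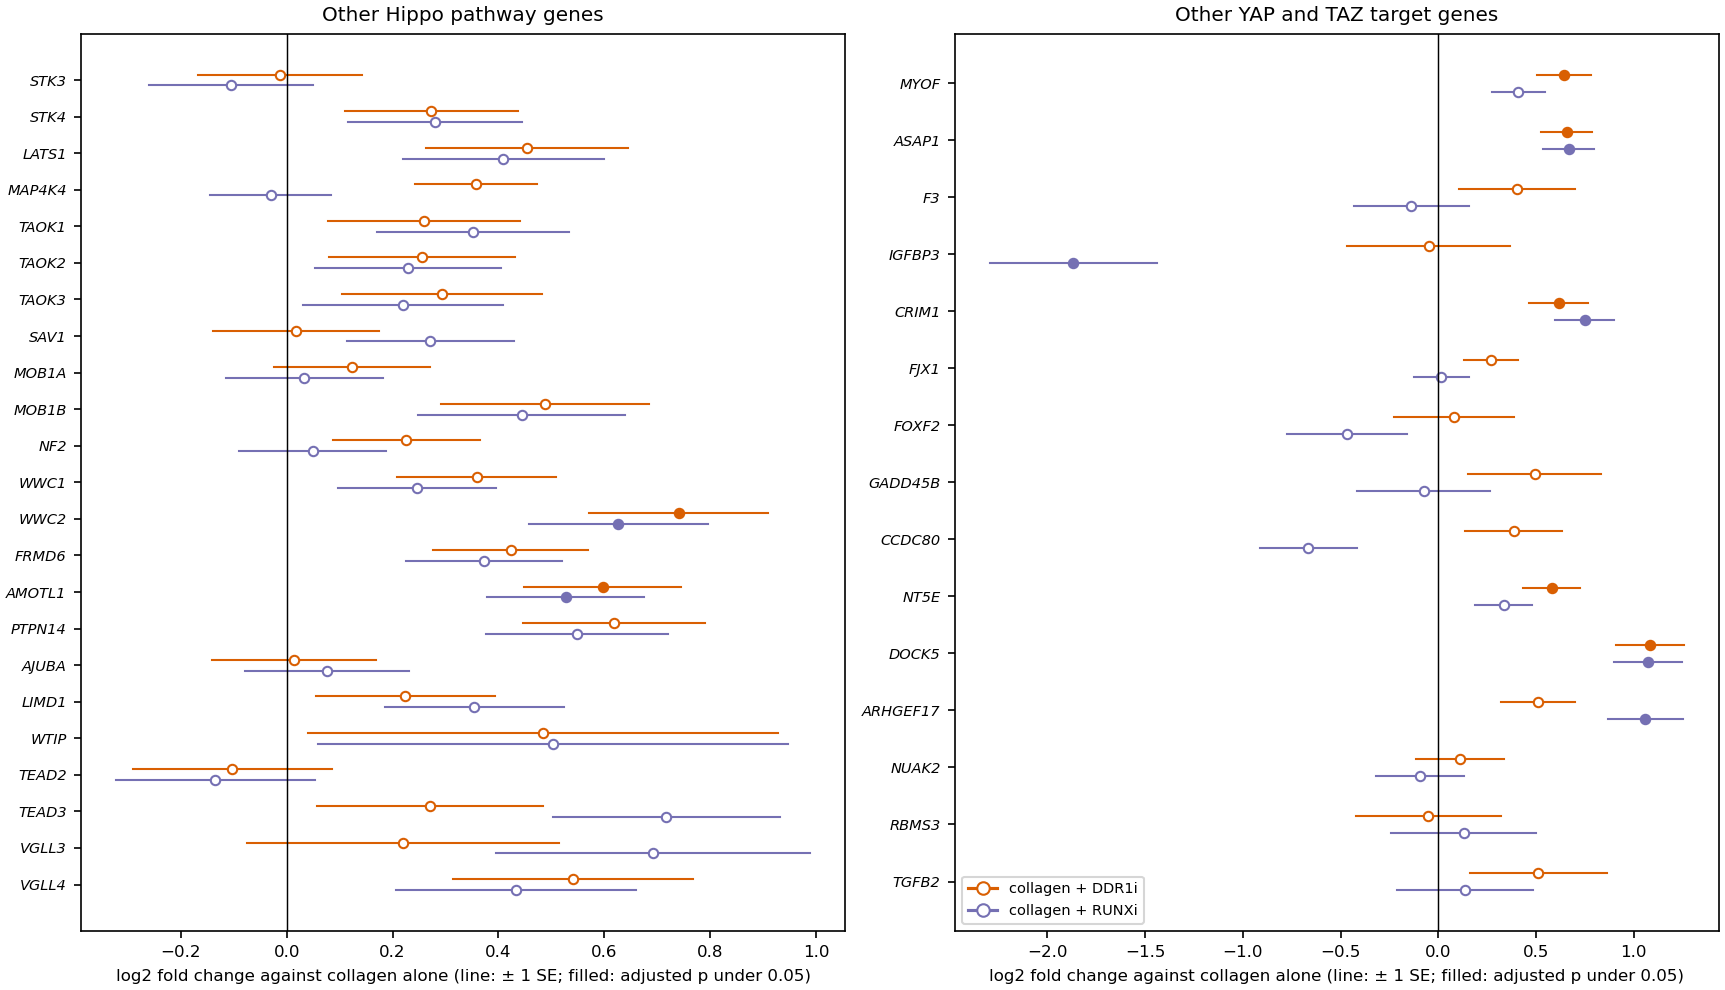
Log2 fold change against collagen alone with DDR1i (orange) and RUNXi (purple), ± 1 SE, of 23 other Hippo pathway genes (left) and 15 other YAP and TAZ target genes (right); filled symbols passed an adjusted p of 0.05 in edgeR's test. *WWC2* and *AMOTL1* passed on the left, and on the right *IGFBP3* stands apart at -1.87 with RUNXi.

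Genes outside these lists resembled *YAP1* and *CYR61* more closely than the other members did. So many genes are likely to hold closer matches than the few members, so this is a description. By the Spearman coefficient of log2 CPM over 16 libraries among 13518 genes, genes among the most like *YAP1* were *ERCC6L2* (0.92) and *MKLN1* (0.83), and the most like *CYR61* were *GAS2L1* (0.89), *SLC10A3* (0.88) and *ST20* (0.84). The nearest member was *TEAD1* for *YAP1* (0.51, rank 843) and *TEAD4* for *CYR61* (0.54, rank 590).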

How the data were processed

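MCF10A RNA (RNeasy kit) was sequenced by the authors, who aligned reads with STAR to GRCh37 (hg19) and deposited raw counts, whole numbers of reads per gene and library, without normalization. The counting tool, annotation and use of strand are not given in the sources used here. Libraries were grouped by the deposited labels. The tests used edgeR 4.0.16 under R 4.3.3 (TMM scaling, filterByExpr with its minimum count of 10, robust quasi-likelihood fit), in fits of 11 libraries (collagen and inhibitors), 7 (collagen and control) and 12 (inhibitors and control), with Benjamini-Hochberg adjustment. SEs were derived from the log2 fold change and F statistic. Log2 CPM used a prior count of 2. DESeq2 1.42.0 was an alternative, as were its size factors, no filter, all 4 groups in the fit, a replicate block, a transcript length trend removed by splines with 4 degrees of freedom, other choices of libraries and leaving out each library. Positions and lengths came from GENCODE lifted to GRCh37, in which 22015 of 26475 names were matched. On data simulated for DDR1i against collagen (13329 genes), the test called 21 of 100 genes changed by a log2 of 1 and 99 of 100 changed by 2. It also called 8 of the unchanged genes. The simulation gave every gene the same spread (a biological coefficient of variation of 0.287), which is not the spread of each of the 10 genes. These simulated data held no trend with transcript length, unlike the real comparison. Members and lists were chosen with earlier results of these data known. From each further list up to 6 genes that passed in any comparison, with the smallest adjusted p, were named. *CCDC80* and *NT5E* were added after their values were seen. A gene of the likeness rule (the 3 genes with the highest Spearman coefficient to *YAP1* and to *CYR61*) is not reported here.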

Additional observations from a re-analysis of the deposited data

Results flagged for a closer look

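*ANKRD1* in DDR1i replicate 3 was at 0.311 CPM (7 counts), far below the 1.77 to 1.84 CPM of the other DDR1i libraries, with a gap of 0.952 of the group's range. *AMOTL2* in RUNXi replicate 4 was at 123 CPM, above the 100.5 to 104 CPM of the other RUNXi libraries, with a gap of 0.849. These were the 2 of 40 groups of values that passed Dixon's critical ratio for 4 samples, and chance gives about 1 in 20.

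For *ANKRD1* every DDR1i library was below and every RUNXi library above the mean of the collagen libraries, but neither difference from collagen passed (adjusted p = 0.439 and 0.361). The difference between the inhibitors (log2 fold change -1.87, unadjusted p = 0.00224) did not pass adjustment in edgeR's test (adjusted p = 0.200), and over its alternatives the adjusted p ranged from 0.0543 (DESeq2) to 0.718 (without RUNXi replicate 2). *IGFBP3* and *CCDC80* differed between the inhibitors in edgeR's test, with log2 fold changes of DDR1i against RUNXi of 1.82 (adjusted p = 0.0290) and 1.05 (adjusted p = 0.0280). Over the alternatives the adjusted p ranged from 0.000597 to 0.298 for *IGFBP3*, which passed in 12 of 18, and from 6.68e-05 to 0.243 for *CCDC80*, which passed in 14 of 18. Both calls were lost without DDR1i replicate 1, DDR1i replicate 3 or RUNXi replicate 1.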

How the results depend on the processing

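The numbers of the 10 genes that passed were 3 with DDR1i and 3 with RUNXi against collagen. For DDR1i they were 5 with DESeq2, 1 with the length trend removed, 1 with collagen replicate 3 included and 2 to 4 when single libraries were left out. For RUNXi they were 0 with collagen replicate 3 included and 2 to 3 when single libraries were left out. For collagen against the control the number was 0 and became 1 with DESeq2, without a filter and with all 4 groups in the fit. For RUNXi against the control it was 0 and became 1 with DESeq2 and 2 with the replicate block (*AXL* and *AMOTL2*, adjusted p = 0.0197 and 0.0390).

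The other Hippo genes that passed with DDR1i numbered 2, and 4 with DESeq2, 0 with the length trend removed, 0 with collagen replicate 3 included and 0 to 3 when single libraries were left out. With RUNXi they numbered 2, and 4 with DESeq2, 1 with all 4 groups in the fit, 0 with the length trend removed, 0 with collagen replicate 3 included and 0 to 2 when single libraries were left out. The other target genes with DDR1i numbered 5, and 1 with the length trend removed, 0 with collagen replicate 3 included and 2 to 5 when single libraries were left out. With RUNXi they numbered 5, and 1 with collagen replicate 3 included. The causes were not tested.

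*YAP1* with DDR1i turned from 0.13 to -0.063 with the length trend removed, and *WWTR1* with RUNXi from 0.19 to between -0.0020 and 0.35 when single libraries were left out. For 26 of the 60 log2 fold changes of the 10 genes, which lay within 1 SE of 0, no direction is given. Of their 458 alternative values 54 changed sign and none passed.

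The labels do not say what a replicate number shares, and the libraries were treated as not paired. Same-numbered libraries of different groups had correlations of their deviations between -0.093 and 0.28, 7 of 24 above 0.1. Replicate 4 gave 6 of these 7 (0.161 to 0.276), and 12 of 16 libraries correlated best with their own number, which is a hint from the data and not from the design. The block moved the genes called from 28 to 116 for DDR1i and from 53 to 162 for RUNXi against the control, and from 77 to 154 between the inhibitors. With the replicate block 3, 3, 0, 0, 1 and 2 of the 10 genes passed in the 6 comparisons, and for these genes the block changed no call but the pair given above for RUNXi against the control. Genes with few counts, as *ANKRD1* with 7 to 179, have wide intervals. A change of 1 on the log2 scale was often missed on data simulated with the same spread for every gene. The SEs of the 10 genes differed, from 0.12 for *YAP1* to 0.58 for *ANKRD1* with DDR1i against collagen. The simulated share therefore does not apply to each of them.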
